A study of Mus musculus with 9 samples.

Results

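Cytochrome P450 genes encode heme enzymes that split molecular oxygen and insert 1 of its atoms into a substrate. The members were the protein-coding genes whose Ensembl identifier maps to a mouse symbol made of Cyp, a number, a letter and a number, and 93 of the 49315 genes listed in the files met this rule. They were measured in brown adipose tissue, the heat-producing fat depot, of male C57Bl/6J mice with diet-induced obesity. Both groups were aged 14 weeks, had 3 weeks of acclimation, lived singly and not at thermoneutrality, and ate a 60% high fat diet up to a weight of about 50 g. For 28 days they then received a daily injection under the skin of vehicle (4 mice) or of cotadutide (5 mice), a peptide that activates both the glucagon receptor and the receptor for glucagon-like peptide 1. Each mouse gave 1 library of polyadenylated RNA. The dose was not given in the sources used here.

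Most P450 enzymes sit in the membrane of the endoplasmic reticulum and take electrons from the reductase Por, while a few sit in mitochondria and take them from the ferredoxin Fdx1. Liver holds the largest set and uses it on drugs, bile acids and fatty acids. In other tissues smaller sets work on local substrates, such as arachidonic acid, sterols, retinoic acid and vitamin D.

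Of the 93 members, 18 reached a mean of at least 1 CPM (counts per M library counts, where M is mega) in a group and 38 had counts but stayed under that level in both groups. The other 37 had no count in any library, and by counting error alone levels of up to 0.036 CPM (vehicle, pooled) and 0.0377 CPM (cotadutide, pooled) could give such zeros. Of the 13 members of the Cyp2 locus on chromosome 7, from 25802475 to 27158668 (mm10), 2 reached 1 CPM (Cyp2b10 and Cyp2f2) and 7 had no count. Of the 14 members of the Cyp2c locus on chromosome 19, from 39007019 to 40187333, none reached it and 11 had no count. In the Cyp4f locus on chromosome 17, from 32468462 to 32947402, 3 of 8 members reached it. Members within 500 kb of each other were taken as 1 locus, and 71 of the 93 lay in 10 loci of more than 1 member. Such neighbours are related in sequence, so reads could be shared among them.

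Library totals ranged from 16.1 to 25.1 M counts in vehicle and from 10.8 to 19.5 M in cotadutide mice. The tissue label was matched by Ucp1, the uncoupling protein of brown fat, at a mean of 5744 CPM in cotadutide mice. Of the hepatocyte markers, Fgb and Tat had no count, and the 8 markers together stood at 1.06 to 1.99 CPM in vehicle and 1.36 to 2.88 CPM in cotadutide mice. Of the adrenal cortex markers, Hsd3b1 had no count and Nr5a1 had 5 counts in vehicle and 0 in cotadutide libraries. The 5 markers of that list summed to 48.85 to 59.01 CPM in vehicle and 64.34 to 82.02 CPM in cotadutide mice. Scarb1 made up most of this sum, at means of 47.9 and 61.8 CPM. Scarb1 (edgeR adjusted p = 0.0163) and Mc2r were called higher. The 12 skeletal muscle markers summed to 21790 to 44440 CPM in vehicle and 5048 to 18300 CPM in cotadutide mice, so muscle mRNA moved with the groups. The 9 macrophage markers summed to 332 to 540.5 CPM against 192 to 399 CPM. The 6 adipocyte markers summed to 13880 to 15190 CPM in vehicle and 17950 to 19600 CPM in cotadutide mice, without overlap. Fabp4 made up most of this adipocyte sum, and of the 6 markers 2 were called higher and 0 lower. Vehicle mouse 4 stood apart, with the highest muscle sum and a white adipocyte marker sum of 231 CPM, where vehicle mice 1 to 3 had 727 to 763 CPM and cotadutide mice 121 to 291 CPM. Its Lep, the leptin gene of white fat, stood at 48.8 CPM, where vehicle mice 1 to 3 had 286 to 328 CPM and cotadutide mice 14.4 to 43.2 CPM. By this white adipocyte sum and by Lep, vehicle mouse 4 lay within or near the cotadutide mice, and in muscle markers it lay farthest from them. Lep and Npr3 made up most of the sum in vehicle mice 1 to 3. Retn, also on that list, ran the other way, with a mean of 99.1 CPM under cotadutide and 59.6 CPM under vehicle. It did not pass (edgeR adjusted p = 0.118), and vehicle mouse 4, at 80.5 CPM, was the highest vehicle mouse for Retn. In bulk tissue, fewer cells of a type and less RNA per cell cannot be told apart.

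Promoters are shown for Cyp2e1, Cyp4b1 and Cyp4f13, called members with an entry in the promoter table, and for Cyp2b10, whose call depended on vehicle mouse 4. Each is the 250 bases before the start site (RefSeq, GRCm38.p6), given 5′ to 3′ on the gene's strand: chr7:140763569-140763818 (plus), chr4:115647722-115647971 (minus), chr17:32947362-32947611 (minus) and chr7:25897408-25897657 (plus). Capitals mark matches, on either strand, to TATAAA (the TATA box), CCAAT (the CCAAT box), AGGTCA (a core hexamer of nuclear receptor sites) and GCGTG (the core bound by the Ahr receptor).
Cyp2e1: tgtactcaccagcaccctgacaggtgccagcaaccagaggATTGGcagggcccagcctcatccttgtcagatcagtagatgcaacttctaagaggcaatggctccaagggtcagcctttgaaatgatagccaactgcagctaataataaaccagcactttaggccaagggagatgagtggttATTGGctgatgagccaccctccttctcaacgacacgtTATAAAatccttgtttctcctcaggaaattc
Cyp4b1: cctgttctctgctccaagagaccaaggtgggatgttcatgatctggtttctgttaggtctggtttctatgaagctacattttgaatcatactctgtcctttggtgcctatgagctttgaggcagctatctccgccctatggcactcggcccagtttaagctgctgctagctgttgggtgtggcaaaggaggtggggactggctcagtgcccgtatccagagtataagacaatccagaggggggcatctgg
Cyp4f13: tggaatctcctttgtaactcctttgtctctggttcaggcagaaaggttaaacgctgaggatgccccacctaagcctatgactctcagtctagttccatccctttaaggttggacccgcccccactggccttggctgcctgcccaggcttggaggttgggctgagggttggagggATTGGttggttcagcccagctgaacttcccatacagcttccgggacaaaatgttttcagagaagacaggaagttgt
Cyp2b10: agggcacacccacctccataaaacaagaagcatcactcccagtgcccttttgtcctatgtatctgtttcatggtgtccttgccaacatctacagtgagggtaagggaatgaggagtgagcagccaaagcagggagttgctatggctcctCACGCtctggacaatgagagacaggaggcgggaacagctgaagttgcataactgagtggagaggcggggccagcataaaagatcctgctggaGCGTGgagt
In Cyp2e1 a TATA box match lay at positions -31 to -26 from the start, and CCAAT matches lay on the opposite strand at -68 to -64 and -210 to -206. Cyp4f13 had 1 CCAAT match at -76 to -72, and Cyp2b10 had GCGTG at -9 to -5 and, on the opposite strand, at -101 to -97. Cyp4b1 held none of these letters in this window. The RefSeq start sites lay inside the counted Ensembl genes, whose 5′ ends were 140763739 (Cyp2e1), 115647723 (Cyp4b1), 32947402 (Cyp4f13) and 25897620 (Cyp2b10). By these ends, the TATA box match and nearer CCAAT match of Cyp2e1 lay within the counted gene. The same held for GCGTG at -9 to -5 in Cyp2b10. RefSeq promoters were matched for 14 of the 18 members at 1 CPM or more, of which 2 held TATAAA, 6 CCAAT, 1 AGGTCA and 6 GCGTG. Over all 32851 promoters of the same length in the table the shares were 12.4%, 33.8%, 14.0% and 28.2%. Since Cyp4b1 held none of these exact strings, none could be common to Cyp2e1, Cyp4b1 and Cyp2b10. Looser forms of the motifs were not searched for, so shared elements of other spelling could be present.

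Brown fat of cotadutide mice carried more Cyp2e1, Cyp4b1, Cyp4f13 and Cyp4f17 mRNA. These 4 were higher and 0 were lower of the 22 members with enough counts to be tested (edgeR quasi-likelihood test, Benjamini-Hochberg adjusted p under 0.05 over 14747 genes). Each cotadutide mouse also had a higher adipocyte marker sum than each vehicle mouse, and the part of adipocytes in these differences was not tested. Over all genes tested, 9.31% were called higher and 9.34% lower. In either direction 18.7% of all genes were called, so 4 of 22 members is near that background. The shares of all genes called in either direction, higher and lower were 22.1%, 10.8% and 11.3% by DESeq2, 20.3%, 10.2% and 10.0% by limma-voom and 7.57%, 3.15% and 4.42% by edgeR with no count filter. With the mouse number as a replicate block they were 9.28%, 3.28% and 6.00%. The median log2 fold change was 0.22 over the 22 members and 0.00 over all genes tested. By group overlap, 3 members had every cotadutide mouse above every vehicle mouse and 1 had every one below, against 6.60% and 9.32% of all genes tested (15.9% in either direction). Of the 22 members tested, 9 had an unadjusted p under 0.05, as did 5267 of the 14747 genes, so this share too is near the background. With library totals in place of scaling factors, 1046 genes were called higher and 1658 lower, against 1373 and 1378, and the same 4 members were called higher.

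**Figure D1:**
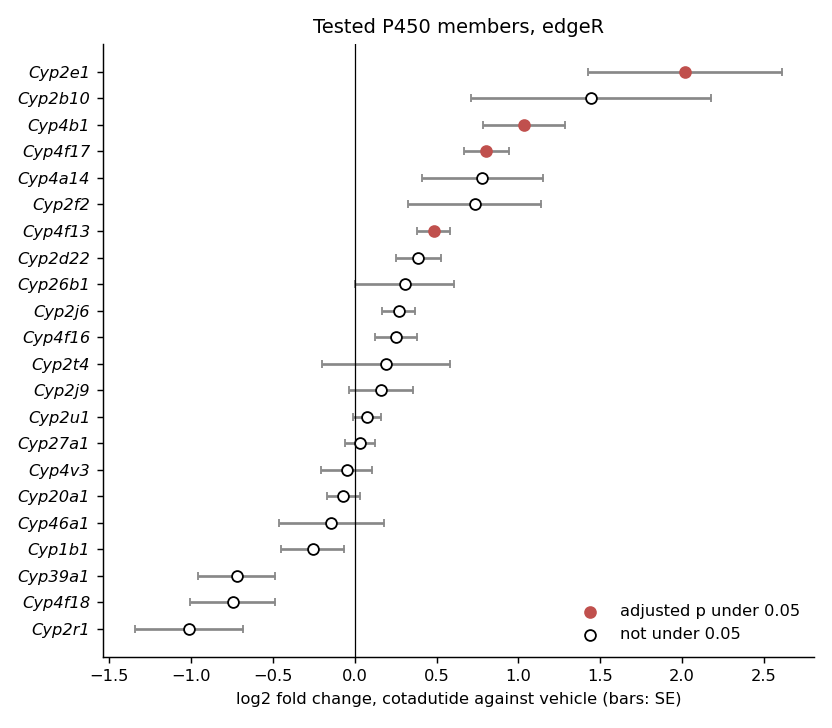
Log2 fold change, cotadutide against vehicle, of the 22 tested members (points) with SE (bars). Filled points, for Cyp2e1, Cyp4b1, Cyp4f17 and Cyp4f13, passed the adjusted p threshold of 0.05, and 15 of the 22 points lie above 0.

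The summed level of all 93 members was 468 ± 74.9 CPM (SD, n = 4) in vehicle and 695 ± 76.8 CPM (SD, n = 5) in cotadutide mice. Vehicle mouse 4, at 578 CPM, lay beside cotadutide mouse 5, at 577 CPM, and the other vehicle mice stood at 413 to 450 CPM. Cyp2e1 and Cyp4b1 together took 22.9% ± 10.1 (SD, n = 4) of this sum in vehicle and 42.6% ± 5.62 (SD, n = 5) in cotadutide mice. Without these genes and Cyp2b10, the sum was 344 ± 14.2 CPM (SD, n = 4) and 368 ± 28.5 CPM (SD, n = 5), with ranges of 326 to 358 and 338 to 411 CPM. Most of the difference in the sum therefore lay in 3 genes.

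**Figure D2:**
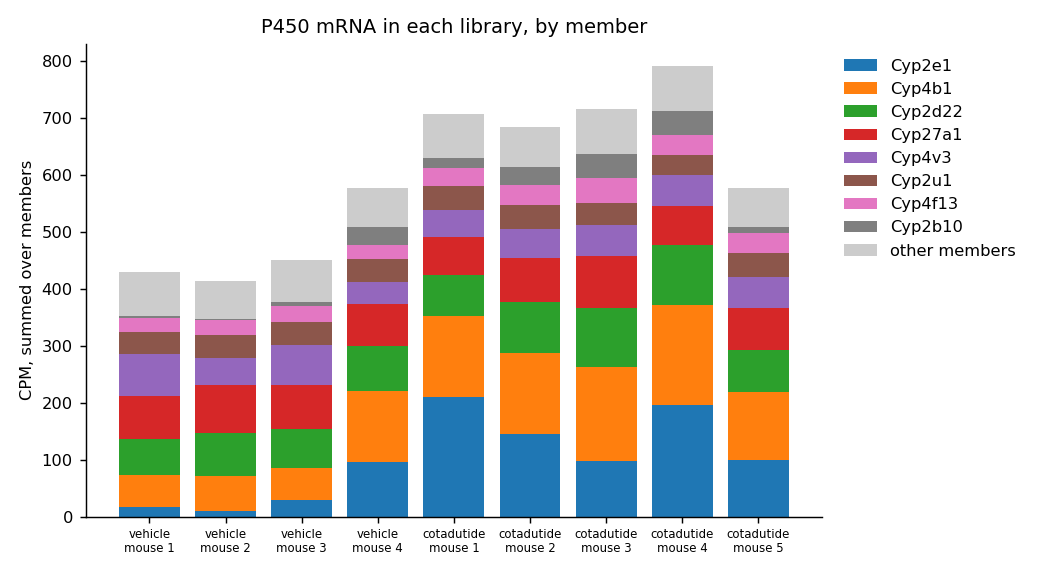
CPM of the P450 members in each library, stacked, with the 8 members of highest level each in a band and the rest in light grey. The Cyp2e1 and Cyp4b1 bands are wider in the cotadutide libraries and in vehicle mouse 4, whose sum is 578 CPM, than in vehicle mice 1 to 3.

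Per length (CPM divided by the gene length in the files, in kb), the order of levels differed between groups at the top. In vehicle mice Cyp27a1 led at 35.7 CPM per kb, followed by Cyp4b1 at 33.2, Cyp2d22 at 25.6, Cyp2e1 at 17.6 and Cyp4v3 at 15.2 CPM per kb. The range of each overlapped that of the next, so the order of neighbours is not resolved. Cyp27a1 (33.53 to 38.43 CPM per kb) did lie above Cyp2d22 (22.28 to 28.75), and Cyp2d22 above Cyp4v3 (10.41 to 19.41). In cotadutide mice Cyp2e1 led at 69.5 CPM per kb, with Cyp4b1 at 65.6, and their ranges overlapped. Both lay above the ranges of Cyp27a1, at 34.8, and Cyp2d22, at 32.0 CPM per kb. At the low end, Cyp2f2 stood at 0.31 and 0.496 CPM per kb in vehicle and cotadutide mice.

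Among the members that act on foreign compounds (the 1A, 1B, 2A, 2B, 2D, 2E, 2F, 2G and 3A subfamilies), 5 of 30 reached 1 CPM and 15 had no count. Cyp2e1, which oxidises ethanol, acetone and fatty acids, lies on chromosome 7 from 140763739 to 140774987. Its level was 16.2, 10.6, 29.4 and 95.7 CPM in vehicle mice 1 to 4. It was 210.5, 146, 98.2, 196 and 99.1 CPM in cotadutide mice 1 to 5. Every cotadutide mouse lay above every vehicle mouse, but vehicle mouse 4 came within 3 CPM of cotadutide mouse 3. The fold was 4.05 (38.0 ± 39.3 CPM, SD, n = 4, against 150.0 ± 52.7 CPM, SD, n = 5; log2 change 2.02, standard error 0.59, edgeR adjusted p = 0.0401). Without vehicle mouse 4 the log2 fold change was 3.11 (edgeR adjusted p = 0.00348). Leaving out any one of vehicle mice 1 to 3 or cotadutide mice 1 to 4 ended the call, with edgeR adjusted p from 0.0629 to 0.118. Testing with no count filter also ended it (edgeR adjusted p = 0.162).

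Cyp2b10, a liver enzyme known for its induction through the nuclear receptor Nr1i3, lies on chromosome 7 from 25897620 to 25926624. It stood at 3.03, 1.99, 7.03 and 31.8 CPM in vehicle mice 1 to 4 and at 18.0, 30.9, 41.3, 43.0 and 11.0 CPM in cotadutide mice 1 to 5. Vehicle mouse 4 was as high as the middle of the cotadutide mice, and the other vehicle mice were below all of them. The difference did not pass (log2 change 1.44, standard error 0.73, edgeR adjusted p = 0.184). It passed by limma-voom (log2 fold change 2.33, adjusted p = 0.038) and by edgeR without vehicle mouse 4 (log2 fold change 3.00, adjusted p = 0.0109). Cotadutide mice 1 and 5, the lowest of their group for Cyp2b10, had muscle marker sums of 18300 and 18000 CPM against 5048 to 11590 CPM in the other cotadutide mice. With the muscle marker score of each library as a covariate, the log2 fold change of Cyp2b10 was 1.78 (edgeR adjusted p = 0.616). That fit cannot tell muscle and treatment apart, since every vehicle mouse had the higher muscle sum. The part of muscle in the spread among cotadutide mice was not tested. Vehicle mouse 4 had the highest muscle sum of all and the highest Cyp2e1, Cyp4b1 and Cyp2b10 of its group.

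**Figure D3:**
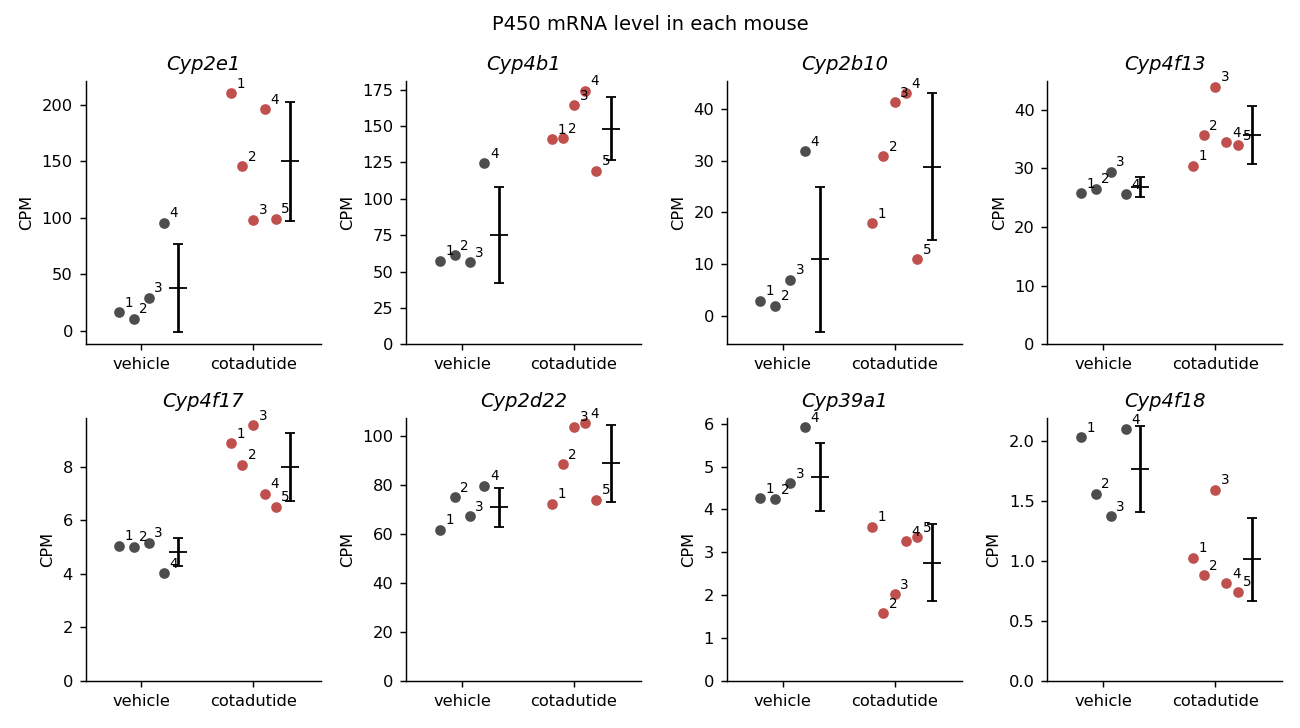
CPM of 8 members in each mouse (points, labelled by mouse number), with the mean and SD of each group (4 vehicle and 5 cotadutide mice) beside them. Vehicle mouse 4 stands above the other vehicle mice for Cyp2e1, Cyp4b1 and Cyp2b10, and below them for Cyp4f17, and the SD bars of Cyp2e1 and Cyp2b10 reach below 0.

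Cyp2d22, a drug-oxidising enzyme of the 2D subfamily, stood at 61.7, 75.0, 67.3 and 79.7 CPM in vehicle mice 1 to 4 and at 72.4, 88.5, 104, 105 and 74.0 CPM in cotadutide mice 1 to 5. The groups overlapped, and the difference missed the threshold (log2 change 0.39, standard error 0.13, edgeR adjusted p = 0.0629). It passed by DESeq2 (adjusted p = 0.0487) and by edgeR without vehicle mouse 4 or cotadutide mouse 1 (adjusted p = 0.0248 and 0.0343). Cyp1b1, which oxidises estradiol and polycyclic hydrocarbons and is a target of the receptor Ahr, ranged from 5.93 to 8.48 CPM in vehicle and from 4.20 to 7.71 CPM in cotadutide mice (log2 change -0.26, standard error 0.19, edgeR adjusted p = 0.36). Cyp2f2, an enzyme best known from lung, had 52 counts over the vehicle and 78 over the cotadutide libraries (edgeR adjusted p = 0.218). Of its 2025 bases, 26.8% overlapped the antisense gene Gm15883. Cyp1a1 stayed at or under 0.43 CPM in every library, and Cyp1a2 and Cyp3a11 had no count.

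The Cyp4 members hydroxylate fatty acids and eicosanoids at the end of the chain. Of 16 in the 4A, 4B, 4F and 4V subfamilies, 6 reached 1 CPM, 7 were tested and 3 were called higher. Over all genes tested 9.31% were called higher, and an excess in this small set was not tested. Cyp4b1, on chromosome 4 from 115624725 to 115647723, stood at 57.6, 61.4, 56.4 and 124 CPM in vehicle mice 1 to 4. It stood at 141, 142, 164, 174 and 119 CPM in cotadutide mice 1 to 5. Vehicle mice 1 to 3 were close together and below all cotadutide mice, while vehicle mouse 4 lay above cotadutide mouse 5. The fold was 2.05 (74.9 ± 33.01 CPM, SD, n = 4, against 148 ± 21.7 CPM, SD, n = 5; log2 change 1.03, standard error 0.25, edgeR adjusted p = 0.024). It was 1.44 on the log2 scale without vehicle mouse 4 (edgeR adjusted p = 9.6e-05). Leaving out vehicle mouse 1, 2 or 3, or cotadutide mouse 2, 3 or 4, ended the call (edgeR adjusted p from 0.0526 to 0.0816), as did testing with no count filter (edgeR adjusted p = 0.0911). The neighbouring pseudogenes Cyp4b1-ps1 and Cyp4b1-ps2 had 5 and 1 counts over vehicle and 19 and 10 over cotadutide libraries.

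Cyp4f17 and Cyp4f13 lie in the Cyp4f locus, from 32506462 to 32528894 and from 32924688 to 32947402 on chromosome 17. Cyp4f17 stood at 5.06, 5.02, 5.17 and 4.04 CPM in vehicle mice 1 to 4 and at 8.89, 8.08, 9.56, 7.0 and 6.51 CPM in cotadutide mice 1 to 5. The groups did not overlap and the vehicle values spanned little over 1 CPM. The fold was 1.75 (4.82 ± 0.527 CPM, SD, n = 4, against 8.01 ± 1.27 CPM, SD, n = 5; log2 change 0.80, standard error 0.14, edgeR adjusted p = 0.0143). Cyp4f17 was the only member called with any one of the 9 libraries left out, with edgeR adjusted p from 0.00559 to 0.049. Cyp4f13 stood at 25.7, 26.5, 29.4 and 25.6 CPM in vehicle mice 1 to 4 and at 30.4, 35.7, 43.9, 34.5 and 33.9 CPM in cotadutide mice 1 to 5. Again no cotadutide mouse was as low as a vehicle mouse (1.40-fold, log2 change 0.48, standard error 0.10, edgeR adjusted p = 0.0165). Leaving out vehicle mouse 1 or 2 ended the Cyp4f13 call (edgeR adjusted p = 0.0573 and 0.0563). Cyp4f16, between them on the chromosome, ranged from 7.81 to 9.68 CPM and from 7.53 to 11.9 CPM (log2 change 0.25, standard error 0.13, edgeR adjusted p = 0.188).

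Cyp4f18, on chromosome 8, inactivates leukotriene B4 in neutrophils. It stood at 2.03, 1.56, 1.37 and 2.10 CPM in vehicle mice 1 to 4 and at 1.03, 0.878, 1.59, 0.814 and 0.744 CPM in cotadutide mice 1 to 5. Only cotadutide mouse 3 overlapped the vehicle mice (log2 change -0.75, standard error 0.26, edgeR adjusted p = 0.0652). Without that mouse Cyp4f18 was called lower (log2 fold change -0.96, edgeR adjusted p = 0.0413). Since that omission takes out the overlapping mouse, it adds no separate support. With any other single library left out Cyp4f18 did not pass (edgeR adjusted p from 0.0765 to 0.175). Cotadutide mouse 3 had a T and B cell marker sum of 44.4 CPM against 2.97 to 3.40 CPM in the other cotadutide mice. Macrophage markers, of which 5 of 9 fell and 0 rose, moved the same way as Cyp4f18 between the groups, and their part was not tested. Over all genes tested, 9.34% were called lower and 9.31% higher. Cotadutide mouse 3, the highest of its group for Cyp4f18, had a macrophage marker sum of 196.6 CPM. The other cotadutide mice had 191.7 to 399.1 CPM. Of the 1855 bases of Cyp4f18, 23.2% overlapped Zfp961 on the opposite strand, which stood at 9.34 to 13.9 CPM.

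Cyp4v3, a fatty acid hydroxylase on the same chromosome, was more variable in vehicle mice, at 73.9, 47.5, 69.8 and 39.6 CPM, than in cotadutide mice, at 48.6 to 55.5 CPM. Its means were close (log2 change -0.05, standard error 0.16, edgeR adjusted p = 0.854). The liver targets of Ppara, Cyp4a10 and Cyp4a14, were near the lower limit. Cyp4a14 had 45 counts over vehicle and 72 over cotadutide libraries (log2 change 0.78, standard error 0.37, edgeR adjusted p = 0.152, and 0.03 without vehicle mouse 4). Cyp4a10 had 17 and 56 counts and did not enter the test. It stood at 0.199, 0.0865, 0.0623 and 0.472 CPM in vehicle mice 1 to 4 and at 0.411 to 1.09 CPM in cotadutide mice. Cyp4a10 was called higher by DESeq2 (3.56-fold, adjusted p = 0.0177), by edgeR with no count filter (3.40-fold, adjusted p = 0.0285) and by edgeR without vehicle mouse 4 (adjusted p = 0.00622).

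**Figure D4:**
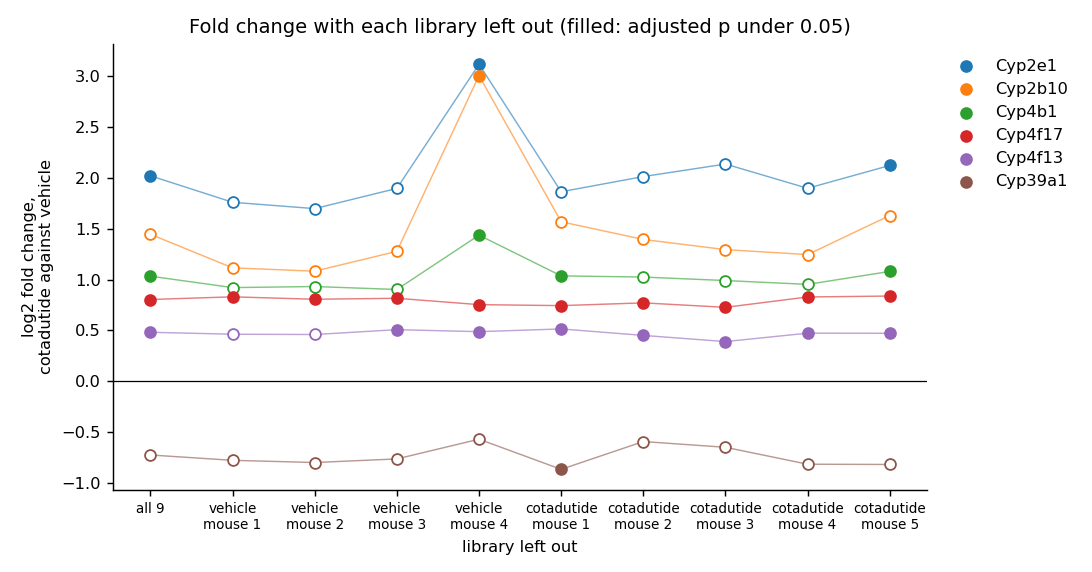
Log2 fold change, cotadutide against vehicle, of 6 members with all 9 libraries and with each one left out, filled where the edgeR adjusted p was under 0.05. Cyp2e1 and Cyp2b10 move to 3.11 and 3.00 without vehicle mouse 4, while Cyp4f17 stays between 0.73 and 0.84 and is filled throughout.

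Members were grouped by whole subfamily, so single members may act mainly on other substrates. The 2C, 2J and 2U subfamilies, grouped for epoxides and related products of arachidonic acid, numbered 24 members. Of these, 3 reached 1 CPM and 15 had no count. None was called. Cyp2u1 stood at 37.2 to 41.2 CPM in vehicle and 34.7 to 41.9 CPM in cotadutide mice (log2 change 0.08, standard error 0.09, edgeR adjusted p = 0.55). Of its length, 30.8% overlapped the gene 4930534D22Rik on the opposite strand. Cyp2j6, an arachidonic acid epoxygenase, stood at 22.1, 18.6, 22.8 and 19.4 CPM in vehicle mice 1 to 4 and at 21.1, 26.0, 24.1, 24.9 and 22.6 CPM in cotadutide mice 1 to 5 (log2 change 0.27, standard error 0.10, edgeR adjusted p = 0.085). Its neighbour Cyp2j9 ranged from 2.55 to 3.61 CPM and from 2.66 to 4.64 CPM (edgeR adjusted p = 0.583).

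Of 6 members of the subfamilies grouped for cholesterol, oxysterols and bile acids, 2 reached 1 CPM. Cyp27a1, the mitochondrial sterol hydroxylase of the acidic bile acid route, ranged from 72.9 to 83.5 CPM in vehicle and from 66.7 to 91.4 CPM in cotadutide mice (log2 change 0.03, standard error 0.09, edgeR adjusted p = 0.841). Cyp39a1, an oxysterol hydroxylase, stood at 4.26, 4.24, 4.61 and 5.92 CPM in vehicle mice 1 to 4 and at 3.60, 1.58, 2.03, 3.26 and 3.35 CPM in cotadutide mice 1 to 5. Each cotadutide value was below each vehicle value, but the test missed the threshold (log2 change -0.72, standard error 0.24, edgeR adjusted p = 0.0525). Cyp39a1 passed as lower by DESeq2 (adjusted p = 0.025), limma-voom (adjusted p = 0.0471) and edgeR without cotadutide mouse 1 (adjusted p = 0.0338). With any other single library left out it did not pass (edgeR adjusted p from 0.051 to 0.107). With the muscle marker score as a covariate, its log2 fold change was -0.01 (edgeR adjusted p = 0.985). That fit cannot tell muscle and treatment apart. Cyp46a1, the brain cholesterol hydroxylase, had 57 and 46 counts (edgeR adjusted p = 0.786), and Cyp7a1, the first enzyme of the classical bile acid route, had no count.

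Of the vitamin D members, Cyp2r1, which makes the circulating form of vitamin D, was the highest member just under 1 CPM. It stood at 1.08, 1.30, 0.934 and 0.472 CPM in vehicle mice 1 to 4 and at 0.462, 0.351, 0.507, 0.326 and 0.651 CPM in cotadutide mice 1 to 5. Only vehicle mouse 4 overlapped the cotadutide mice (log2 change -1.01, standard error 0.33, edgeR adjusted p = 0.0515). Without vehicle mouse 4, Cyp2r1 was called lower (log2 fold change -1.21, edgeR adjusted p = 0.0151). Since that omission takes out the overlapping mouse, it adds no separate support. It also raised the calls over all genes, to 2116 higher and 1588 lower. With any other single library left out Cyp2r1 was not called. The other members closest below the limit were Cyp4a14 and Cyp4a10, at 0.892 and 0.709 CPM in cotadutide mice, and those closest above it were Cyp2f2 at 1.00, Cyp4f18 at 1.76 and Cyp26b1 at 3.36 CPM in their higher group. Cyp24a1, which degrades vitamin D, had no count.

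Cyp26b1, which degrades retinoic acid, stood at 2.41 to 3.54 CPM in vehicle and at 5.65, 1.41, 3.91, 2.77 and 3.07 CPM in cotadutide mice 1 to 5 (log2 change 0.31, standard error 0.30, edgeR adjusted p = 0.498). None of the 6 steroid hormone members reached 1 CPM, and Cyp19a1, Cyp11b1 and Cyp11b2 had no count. Cyp20a1, whose substrate is not established, ranged from 10.1 to 11.9 CPM and from 8.78 to 11.5 CPM (log2 change -0.07, standard error 0.10, edgeR adjusted p = 0.65).

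The lists of genes that serve the family read as follows, beside the 18.7% of all genes called in either direction. Of 9 tested redox partners, 1 rose and 0 fell, with a median log2 fold change of 0.11. Fdx1, the ferredoxin of mitochondrial members such as Cyp27a1, stood at 56.3 to 67.6 CPM in vehicle and 73.9 to 87.8 CPM in cotadutide mice (1.35-fold, edgeR adjusted p = 0.0188). Por, the reductase of the others, was at 243 ± 20.5 CPM (SD, n = 4) and 268 ± 25.6 CPM (SD, n = 5; edgeR adjusted p = 0.168), and Cyb5r3, Cyb5r1 and Fdxr did not pass (edgeR adjusted p from 0.078 to 0.0892). Of 12 tested receptors and regulators, 3 rose and 0 fell, all without overlap. These were the oxysterol receptors Nr1h3 (1.37-fold, edgeR adjusted p = 0.0287) and Nr1h2 (1.35-fold, 0.0197 likewise adjusted) and their partner Rxrb (1.42-fold, 0.0178 likewise adjusted). Nr1i3, at 1.59 to 2.73 and 2.39 to 3.69 CPM, did not pass (edgeR adjusted p = 0.132), nor did Ppara or Ahr (edgeR adjusted p = 0.629 and 0.624). Nr1i2 had counts too few to test, and Hnf4a had none.

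Of 11 tested epoxide hydrolases and eicosanoid enzymes, 1 rose and 1 fell, with a median log2 fold change of -0.46. Ephx2, the soluble hydrolase that opens fatty acid epoxides, stood at 389, 351, 427 and 574 CPM in vehicle mice 1 to 4 and at 657, 715, 738, 777 and 627 CPM in cotadutide mice 1 to 5. Every cotadutide mouse was above every vehicle mouse, and vehicle mouse 4 was the highest of its group (1.68-fold, log2 change 0.75, standard error 0.15, edgeR adjusted p = 0.0163). Hpgds, the hematopoietic prostaglandin D synthase, fell (4.50 ± 1.25 CPM, SD, n = 4, against 2.36 ± 0.80 CPM, SD, n = 5; log2 fold change -0.89, edgeR adjusted p = 0.0334). Ptgds and Alox5 had log2 changes of -0.85 and -0.80 and did not pass (edgeR adjusted p = 0.0584 and 0.109). Of the steroid and oxysterol partners, 1 of 7 rose, the glucocorticoid-activating Hsd11b1 (1.61-fold, edgeR adjusted p = 0.0211). Of 2 tested Ahr targets outside the family, Nqo1 fell (log2 fold change -0.74, edgeR adjusted p = 0.0472) and Tiparp did not pass. Of 7 tested conjugation enzymes, 1 fell, Gsta3 (log2 fold change -1.12, edgeR adjusted p = 0.0458), for which vehicle mouse 4 stood at 1.68 CPM and vehicle mice 1 to 3 at 4.67 to 6.47 CPM. The P450 enzymes with other names, Cyp51, Tbxas1 and Ptgis, did not pass (edgeR adjusted p from 0.0799 to 0.19). Leaving out vehicle mouse 1, or vehicle mouse 2, ended each of the 9 calls named from these lists, as did the muscle score as a covariate. The Gsta3 call was also lost by limma-voom and with no count filter.

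With the muscle marker score of each library as a covariate, 0 of 22 members were called and 5 had an unadjusted p under 0.05. Over all 14747 genes edgeR then called 0 (0.00%), with 2233 at an unadjusted p under 0.05. The log2 fold changes of the called members were then 3.43 for Cyp2e1, 1.30 for Cyp4b1, 0.57 for Cyp4f17 and 0.23 for Cyp4f13. Since every vehicle mouse had a higher muscle sum than any cotadutide mouse, muscle mRNA and treatment cannot be told apart.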

How the data were processed

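Brown fat RNA of 9 mice was read from 1 file per mouse, in which the authors deposited raw counts of reads per Ensembl gene. Build mm10 and the tools STAR 2.5.2b, Trimmomatic 0.36, featureCounts (Subread 1.5.2) and bcl2fastq 2.17 are listed in the submitters' processing notes. Tool settings and strand were not given in the sources used here, so reads of overlapping genes could not be separated. Symbols came from a table of Ensembl gene names and GENCODE M21 (49056 of 49315 identifiers matched) and gene types from GENCODE M21.

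CPM were computed from library totals, and fold changes from edgeR's scaled libraries. Genes were tested with edgeR 4.0.16 (filterByExpr, TMM scaling, glmQLFit with robust dispersion, glmQLFTest; R 4.3.3) on all 9 libraries, group only, with a Benjamini-Hochberg adjusted p of 0.05 over 14747 genes. SE is the log2 fold change divided by the root of F. The script was tested on simulated counts. Alternatives were RLE or no scaling, other filters, DESeq2 1.42.0, limma-voom (limma 3.58.1), each library left out, the mouse number as a block, a muscle score covariate (mean log2 CPM of the markers, prior count 2), mitochondrial genes left out, and a wider symbol pattern. Members whose mean reached 1 CPM in either group are described singly, with the 3 members nearest each side of that limit, and from each other list up to 4 genes of smallest adjusted p and any gene a result turns on. Members and lists were chosen with earlier results of these data known. Other marker lists were endothelial, mural, fibroblast, mesothelial, adipocyte, brown adipocyte and adrenal cortex, of which 1 of 8, 0 of 8, 0 of 10, 1 of 1, 2 of 6, 3 of 8 and 2 of 3 tested markers rose, and 1 fibroblast marker fell. Of the white adipocyte, T and B cell and hepatocyte markers, 0 rose, and 2 of 5 white adipocyte markers fell. Over all genes tested, 9.31% were called higher and 9.34% lower. Every pair of libraries differed beyond counting noise, with a lowest chi-square per degree of freedom of 12.18. Counting limits are 3 counts over the group's total.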

Additional observations from a re-analysis of the deposited data

Results flagged for a closer look

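In 3 of 36 groups of values (18 members in 2 groups), 1 mouse lay far from the others by Dixon's criterion, which chance meets in about 1 of 20 groups. All 3 were vehicle mouse 4. It stood at 124 CPM for Cyp4b1, where vehicle mice 1 to 3 had 56.4 to 61.4 CPM. For Cyp2b10 it stood at 31.8 CPM, against 1.99 to 7.03 CPM. For Cyp4f17 it was the low one, at 4.04 CPM against 5.02 to 5.17 CPM. The first 2 values lie on the side of the cotadutide mice, and the Cyp4f17 value lies away from them.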

How the results depend on the processing

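The count of 4 members called higher stood at 3 to 6 under other scaling, filters, tools, the replicate block (5) and the wider pattern, which added 6 symbols. With no count filter the 3 called were Cyp4a10, Cyp4f13 and Cyp4f17, and Cyp2e1 and Cyp4b1 lost their calls (adjusted p = 0.162 and 0.0911). The count was 0 with the muscle score and ranged from 1 to 8 with a library left out. Omitting vehicle mouse 1 or 2 gave 1, and omitting vehicle mouse 4 gave 8. Omitting vehicle mouse 3 or cotadutide mouse 2, 3 or 4 gave 2, and omitting cotadutide mouse 1 or 5 gave 4. Calls over all genes moved too, so these shifts were not limited to the family. The fit lacking vehicle mouse 1 called 47 genes higher and 92 lower, and the one lacking vehicle mouse 2 called 42 and 105. Dropping vehicle mouse 4 raised the higher calls to 2116 and the lower ones to 1588, from 1373 and 1378 with all 9 libraries. The count of 0 called lower was 2 with library totals only and without mitochondrial genes (Cyp39a1 and Cyp2r1), and 1 with no filter, with at least 1 CPM in 4 libraries, with DESeq2, with limma-voom and with the replicate block (Cyp39a1 each). It was 0 or 1 with a library left out. The cause was not tested. No called member changed sign in any fit. The mouse numbers are not stated to pair the mice in the sources used here. Correlations of same-numbered deviations were 0.14, -0.04, 0.02 and -0.01, and those of differently numbered mice ran from -0.19 to 0.20. These values cannot exclude a shared day or batch. With the mouse number as a replicate block over mice 1 to 4, Cyp2d22 (adjusted p = 0.0471) and Cyp39a1 (adjusted p = 0.0498) also passed, 6 of the 9 calls named from other lists were lost (Fdx1, Rxrb, Nr1h3, Nr1h2, Nqo1 and Gsta3), and over all genes 479 were called higher and 876 lower. Depth limits the 34 members with counts that were not tested, whose group means were at most 0.709 CPM.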
